A study of Solanum lycopersicum with 8 samples.

Results

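The 7 genes described here are the SEPALLATA-like MADS-box genes of tomato and their close relative AGL6, taken by identifier from a table of 34722 genes. They are J2 (Solyc12g038510), EJ2 (Solyc03g114840), LIN (Solyc04g005320), TM5 (Solyc05g015750), TM29 (Solyc02g089200), RIN (Solyc05g012020) and AGL6 (Solyc01g093960), and all 7 were found in the table. The data are RNA-seq libraries of shoot apical meristems, dissected from acetone-fixed tomato seedlings that had been grown in a greenhouse for 2 to 12 days. Wild type (WT) and the late termination (ltm) mutant were each sampled at 4 leaves and at 6 leaves, with 2 libraries, A and B, in each of the 4 groups. The series' design names the WT comparison as vegetative growth against the floral transition and the mutant comparison as made at the same vegetative stage, without giving leaf numbers. The labels give neither the cultivar, the ltm locus, nor the number of meristems pooled, so the mutated gene was not checked.

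SEPALLATA proteins are transcription factors that bind DNA in complexes with other MADS proteins, and they are needed for floral organs to take on their identity. AGL6 proteins belong to the sister branch and can act in the same complexes. In tomato, J2 is known for the pedicel joint at which flowers and fruit abscise, EJ2 for sepal growth, and J2, EJ2 and LIN together for limiting the branching of the inflorescence. TM5 and TM29 are known from floral organ and fruit development, RIN from fruit ripening, and AGL6 from fruit set without fertilisation. Most of these roles are played in flowers and fruit.

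The identifiers place J2 on chromosome 12, EJ2 on 3, LIN on 4, TM5 and RIN on 5, TM29 on 2 and AGL6 on 1. In RefSeq (assembly SLM_r2.1), 5 of the 7 genes were found under the same name, and EJ2 and LIN under their other names MADS1 and CMB1, all 7 on the chromosome that the identifier gives. No source used here names the genome build of the deposited table, so no coordinates are stated. In RefSeq the gene before EJ2 is FUL2 and the one after TM29 is MBP20, both FRUITFULL-like MADS genes. RIN lies beside a RefSeq locus that joins RIN with MADS-MC. How the authors' counting treated reads shared by related or overlapping genes is not given, so the few reads of each of these genes carry that uncertainty too.

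Libraries held 17895357 to 21987881 reads on genes. The meristem markers TKN2, TKN1, WUS and CLV3 had reads in all 8 libraries, whereas the floral organ markers TAP3, TPI, TAG1 and TAGL1 together had 0 to 9 reads in a library. These 4 do not stand for all MADS genes of floral organs. TM6 had 486 to 878 reads and MBP3 58 to 160 in a library, while GLO1 had at most 4 and AGL11 had 0. Of 16 genes of green leaf tissue 15 had reads in every library, with summed values of 20973 to 31509 in 7 libraries and 39774 in ltm 4 leaves B. On the first principal component WT 4 leaves B and ltm 4 leaves B lay at 46.4 and 44.2, and the other 6 libraries at -38.9 to 5.6.

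The SEPALLATA-like and AGL6 genes were all near the limit of detection. Together they had 160 reads of the 161098589 in the 8 libraries. WT 6 leaves held 84 of these, WT 4 leaves 44, ltm 4 leaves 24 and ltm 6 leaves 8. The joint count was 55 reads in WT 6 leaves A and 29 in B, and 16 and 28 in WT 4 leaves A and B. In ltm it was 11 and 13 at 4 leaves and 5 and 3 at 6 leaves. All 7 genes had at least 1 read in WT 6 leaves A, and 2 of the 7 did in ltm 6 leaves A. A count of 0 in a group of 2 libraries allows a level of up to 0.0719 to 0.0792 RPM (3 reads over the group, scaled to its total), and such limits cover counting error only. In dissected tissue, fewer cells that express a gene and less RNA per cell cannot be told apart.

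**Figure D1:**
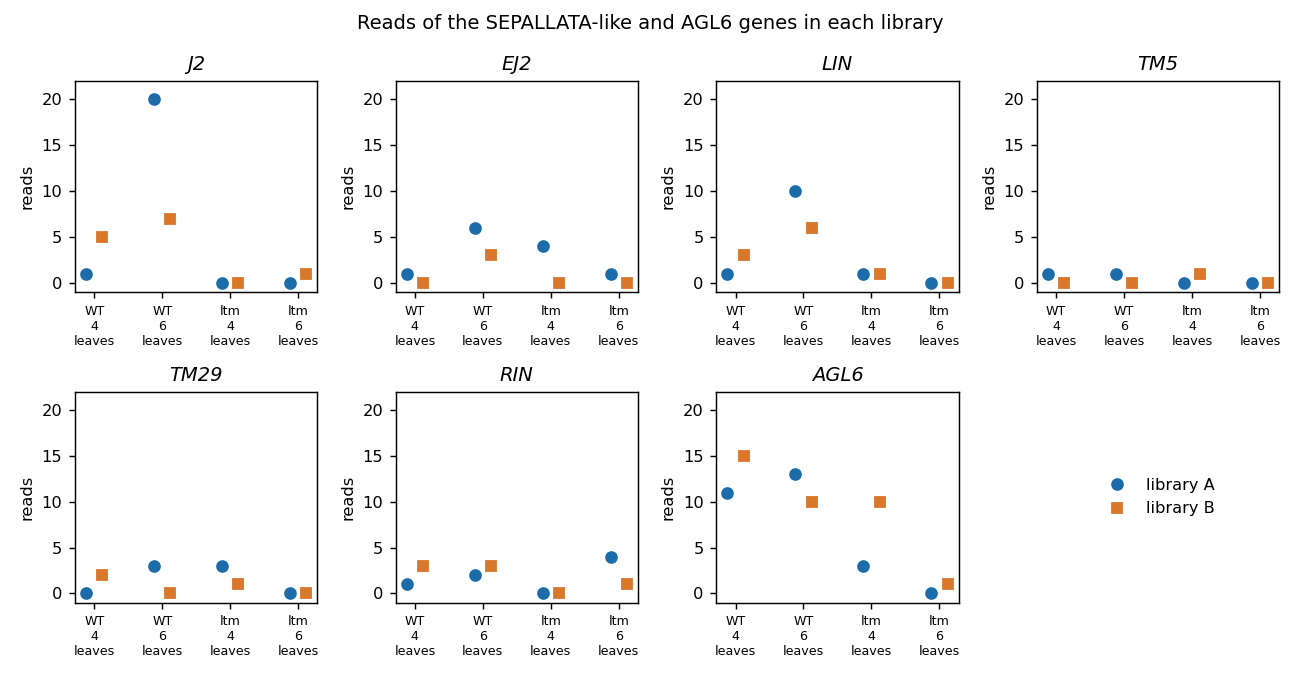
Reads (y axis) of each of the 7 genes in each library, by group on the x axis, with circles for the A and squares for the B libraries. J2, EJ2 and LIN have their highest counts in WT 6 leaves A (20, 6 and 10 reads), AGL6 has 10 to 15 reads in the 4 WT libraries, and TM5 never exceeds 1 read.

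AGL6 was the 1 gene of the 7 that passed the filter on low values, a normalized read count of at least 10 in at least 2 libraries. It had 11 and 15 reads in WT 4 leaves A and B and 13 and 10 in WT 6 leaves A and B. In ltm it had 3 and 10 reads at 4 leaves and 0 and 1 at 6 leaves. The WT libraries were thus alike at the 2 stages, the ltm 4 leaves libraries were spread widely, and the ltm 6 leaves libraries were at or next to 0. As normalized read counts, that is reads divided by the authors' size factor, the groups ranked WT 4 leaves (12.9 ± 3.97, SD, n = 2), WT 6 leaves (12.1 ± 1.15), ltm 4 leaves (6.56 ± 4.97) and ltm 6 leaves (0.50 ± 0.707). The WT groups differed by less than their spread, and the ltm 4 leaves group overlapped with WT 4 leaves, where its B library, at 10.07, lay just above WT 4 leaves A, at 10.05. Both ltm 4 leaves libraries lay below both WT 6 leaves libraries.

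Between ltm and WT at 6 leaves the log2 fold change of AGL6, on the scale of log2(normalized read count + 1), was -3.21 ± 0.734 (SE; limma, unadjusted p = 0.00233). Adjusted over all 19186 genes tested, p was 0.621, so the difference did not pass the threshold of 0.05. In that comparison limma called 0.00521% of genes at the adjusted threshold, while 2.88% were lower and 3.57% higher in ltm at an unadjusted p under 0.05. With 1 read in ltm and 23 in WT, the WT level was 25.1 times that of ltm (95% counting interval 4.07 to 1030). Without WT 6 leaves A the ratio was 23.3 and without WT 6 leaves B 26.6. Without ltm 6 leaves A it was 12.2. Leaving out ltm 6 leaves B instead, which held the 1 read, gave AGL6 4.29-fold lower against a floor of 3 reads. Folds against the floor take the reads of the other group as exact, so they are not lower confidence limits. Within the A libraries the log2 difference was -3.80 and within the B libraries -2.62.

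From 4 to 6 leaves in ltm, AGL6 was lower in both libraries, with a log2 fold change of -2.24 ± 0.734 (limma, unadjusted p = 0.0156, adjusted p = 1.0). Here limma called 0.0% of genes at the adjusted threshold and 1.90% lower at an unadjusted p under 0.05. The reads were 1 at 6 leaves and 13 at 4 leaves, a 13.5-fold difference (2.03 to 575). This made AGL6 the 1 gene of the 7 with a counting interval below 1, beside 18.7% of genes. In this comparison 15 green tissue genes were tested in limma, with a median log2 fold change of -0.67. At an unadjusted p under 0.05, 2 of them were lower and 0 higher. Of the 13 AGL6 reads 10 came from ltm 4 leaves B, the library with the highest green tissue sum. The part of this library in the result was not tested. Without it, the ltm stages had 1 and 3 reads, both at or under the floor. Without ltm 6 leaves A the ratio was 6.57 (0.987 to 279), without ltm 4 leaves A 20.7. Leaving out ltm 6 leaves B, with the 1 read, gave 2.32-fold against the floor. In WT the change was -0.05 ± 0.734 (adjusted p = 0.990), with a ratio of the 4 leaves to the 6 leaves reads of 1.04 (0.57 to 1.91). The difference between the stage changes, ltm minus WT, was -2.19 ± 1.04 (unadjusted p = 0.0675, adjusted p = 1.0), where 0.25% of genes were higher and 0.469% lower at an unadjusted p under 0.05. At 4 leaves ltm was 1.02 ± 0.734 lower on the log2 scale than WT, with an unadjusted p of 0.202 and reads of 13 against 26. The interval of that read ratio of 1.93, 0.956 to 4.09, held 1. Leaving out ltm 4 leaves B gave 4.16 (1.27 to 21.5), leaving out its A library gave 1.26 (0.587 to 2.92), and the interval also lay off 1 without WT 4 leaves A, at 2.38 (1.06 to 5.44).

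J2, EJ2 and LIN showed another pattern across the groups, with their highest counts in WT at 6 leaves. J2 had 20 and 7 reads in WT 6 leaves A and B, 1 and 5 in WT 4 leaves A and B, 0 in both ltm 4 leaves libraries, and 0 and 1 in ltm 6 leaves A and B. WT therefore held 33 of its 34 reads, and WT 6 leaves 79.4% of them. LIN had 10 and 6 reads in WT 6 leaves A and B, 1 and 3 in WT 4 leaves, 1 and 1 in ltm 4 leaves, and 0 in both ltm 6 leaves libraries. WT held 20 of its 22 reads. EJ2 had 6 and 3 reads in WT 6 leaves, 1 and 0 in WT 4 leaves, 4 and 0 in ltm 4 leaves, and 1 and 0 in ltm 6 leaves, or 15 in all. For each of the 3 genes, both WT 6 leaves libraries lay above both WT 4 leaves libraries and above both ltm 6 leaves libraries.

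In WT the 6 leaves libraries held 27 reads of J2 against 6 at 4 leaves, a 4.89-fold difference (1.98 to 14.5). It was 2.71 (0.78 to 9.77) without WT 6 leaves A and 2.74 (1.04 to 9.11) without WT 4 leaves A, and it was 15.7 without WT 4 leaves B. Within the A libraries the log2 difference of J2 was 3.45 and within the B libraries 0.52. For LIN the reads were 16 against 4, a ratio of 4.35 (1.40 to 17.9), which was 2.71 (0.775 to 14.5) without WT 4 leaves A, 3.49 (0.827 to 16.8) without WT 6 leaves A and 9.28 without WT 4 leaves B. Within A its log2 difference was 2.52 and within B 0.92. For EJ2 they were 9 against 1, a ratio of 9.79 (1.36 to 429), with both groups at or under the floor without WT 6 leaves A. Without WT 4 leaves A, the 4 leaves group had 0 reads of EJ2, and EJ2 was 1.52-fold higher at 6 leaves against the floor. The EJ2 ratio was 5.22 (0.723 to 229) without WT 4 leaves B. These intervals leave out the spread between libraries.

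All 7 genes had reads in the WT comparison, and 3 of them, J2, EJ2 and LIN, had groups that did not overlap and were higher at 6 leaves. Over the 24308 genes with a read in these libraries, 18.9% had groups that did not overlap and were higher at 6 leaves, and 19.0% had a counting interval that lay above 1. As J2, EJ2 and LIN were under the filter on low values, they were also tested in a fit with no filter, over 25105 genes. In limma their log2 fold changes were 1.99 ± 0.709 for J2, 2.00 ± 0.804 for EJ2 and 1.72 ± 0.502 for LIN, each with an adjusted p of 0.792 and with 0.0% of all genes called. Unadjusted, p was 0.0236 for J2, 0.0380 for EJ2 and 0.00933 for LIN. In that limma fit 1457 of the 25105 genes had an unadjusted p under 0.05. None of the 3 genes passed in edgeR's quasi-likelihood test on the recovered reads with no filter either, with an adjusted p of 0.865 for each, where 0.00398% of genes were called. DESeq2 with no filter called 0.0451% of genes and gave each of the 3 an adjusted p of 1.0.

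At 6 leaves the mutant had 1 read of J2 where WT had 27, a 29.4-fold lower level (4.85 to 1200). The ratio was 16.3 without WT 6 leaves A and 14.3 without ltm 6 leaves A. Without ltm 6 leaves B, which held the 1 read, J2 was 5.04-fold lower in ltm against the floor. LIN had 0 reads in ltm against 16 in WT, 5.81-fold lower in ltm against the floor. That fold leaves out the counting error of the 16 reads. With 1 library left out, the fold for LIN lay between 2.83 without ltm 6 leaves A and 6.83 without WT 6 leaves B. It was 2.99 without ltm 6 leaves B. EJ2 had 1 read against 9, a ratio of 9.81 (1.36 to 430). It was 5.04 (0.698 to 221) without ltm 6 leaves B, and 1.59 against the floor without ltm 6 leaves A. It is not given without WT 6 leaves A, where both groups were at or under the floor. Within the letters A and B the log2 differences were -4.39 and -2.16 for J2, -3.45 and -2.96 for LIN, and -1.84 and -2.14 for EJ2. As the groups did not overlap, the direction within each letter was fixed and adds no check.

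With AGL6, 4 of the 7 genes were lower in ltm at 6 leaves with groups that did not overlap, beside 20.4% of the 24090 genes with a read in these libraries, while 19.7% were higher. The same 4 had a counting interval below 1, beside 19.4% of genes. In the fit with no filter, the log2 fold changes were -3.27 ± 0.709 for J2, -3.21 ± 0.502 for LIN and -1.99 ± 0.804 for EJ2 (limma, adjusted p = 0.717, 0.441 and 0.788). Their unadjusted p-values in that fit were 0.00181, 2.28e-04 and 0.0389, and 0.00797% of genes were called. An unadjusted p under 0.05 was reached by 1564 of 25105 genes in that fit. edgeR with no filter gave adjusted p-values of 0.724 for J2, 0.647 for LIN and 0.936 for EJ2, and of 0.583 for AGL6. DESeq2 with no filter called 0.187% of genes and gave AGL6 an adjusted p of 0.646. It gave no adjusted p to J2, LIN or EJ2, whose counts it filtered as low. No member of the 7 was therefore called in this comparison, by any of these tools.

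At 4 leaves J2 had 0 reads in ltm and 6 in WT, 1.93-fold lower in ltm against the floor. Of the 6 reads 5 came from WT 4 leaves B. Without WT 4 leaves B both groups were at or under the floor. With either ltm library left out the fold for J2, 0.968 without A and 0.96 without B, was below 1. RIN had 0 in ltm and 4 in WT, 1.29-fold lower against the floor, with a counting interval that held 1. That fold for RIN was 0.645 and 0.64 with ltm 4 leaves A or B left out. With either WT 4 leaves library left out, both groups were at or under the floor for RIN. J2 and RIN were the 2 of 7 genes lower in ltm with groups that did not overlap, beside 11.9% of genes. LIN, with 2 reads against 4, and EJ2, with 4 against 1, had overlapping groups. In the fit with no filter J2 was at -1.79 ± 0.709 (limma, unadjusted p = 0.0364, adjusted p = 1.0). Limma with that fit called 0.00398% of genes, DESeq2 0.0737%. In limma 861 of 25105 genes had an unadjusted p under 0.05. From 4 to 6 leaves in ltm, J2 went from 0 to 1 read, LIN from 2 to 0 and EJ2 from 4 to 1. LIN and J2 were at or under the floor in both groups, and the ratio for EJ2 of 4.16 had an interval of 0.412 to 205.

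**Figure D2:**
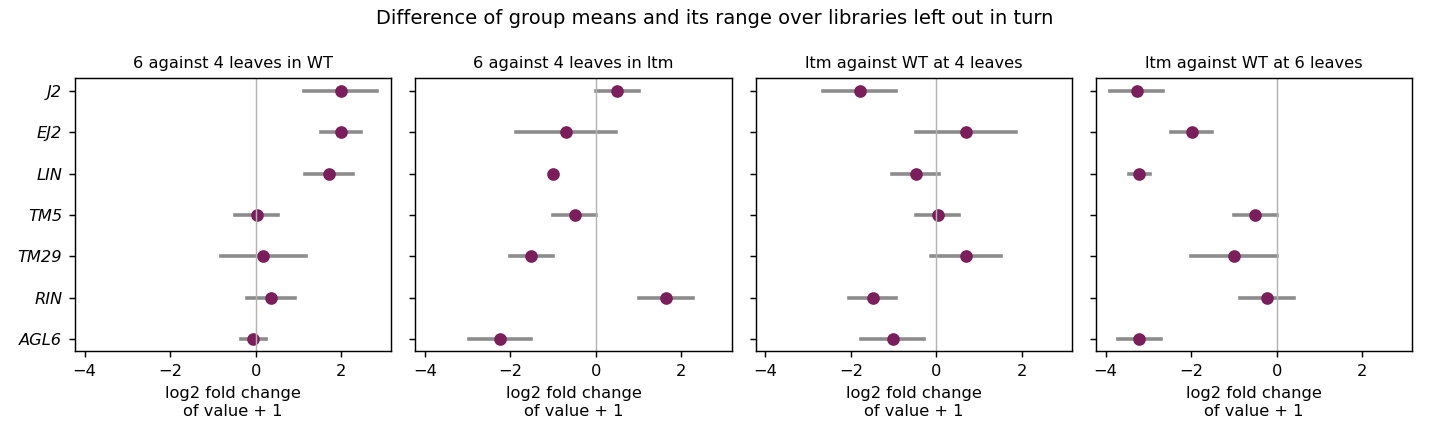
Log2 fold change of log2(normalized read count + 1) on the x axis for each of the 7 genes in 4 comparisons, with the point for all libraries and the bar for the range when each library is left out in turn. For ltm against WT at 6 leaves the points of J2, LIN, AGL6 and EJ2 lie at -3.27, -3.21, -3.21 and -1.99. The groups of these genes did not overlap, so leaving out 1 library could not bring a bar to 0. None passed the adjusted threshold.

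The genes known from flower and fruit development, TM5, TM29 and RIN, had 3, 9 and 14 reads over all 8 libraries. TM5 had 1 read each in WT 4 leaves A, WT 6 leaves A and ltm 4 leaves B and 0 in the other 5 libraries. No fold is given for TM5, since every group was at or under the floor. TM29 had 0 and 2 reads in WT 4 leaves, 3 and 0 in WT 6 leaves, 3 and 1 in ltm 4 leaves, and 0 in both ltm 6 leaves libraries. Its 4 reads at 4 leaves in ltm made it 1.39-fold lower at 6 leaves against the floor, with a counting interval that held 1. That fold was 0.674 and 0.712 with ltm 6 leaves A or B left out. With either ltm 4 leaves library left out, both groups were at or under the floor. Neither gene separated the WT groups at this depth.

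RIN had 1 and 3 reads in WT 4 leaves, 2 and 3 in WT 6 leaves, 0 in both ltm 4 leaves libraries, and 4 and 1 in ltm 6 leaves. It was the 1 gene of the 7 that had higher counts in both ltm 6 leaves libraries than in both ltm 4 leaves libraries. Of all genes, 11.9% had groups that did not overlap and were higher in this comparison. Against the floor RIN was 1.6-fold higher, with a counting interval that held 1. That fold was 0.805 and 0.798 with ltm 4 leaves A or B left out and 2.5 with ltm 6 leaves B left out. With ltm 6 leaves A left out both groups were at or under the floor. In the same comparison 3 of the 7, AGL6, LIN and TM29, had groups that did not overlap and were lower, beside 14.7% of genes. At 6 leaves RIN had 5 reads in each genotype, and the read ratio of 1.09 had an interval of 0.251 to 4.74. RIN was 2.65-fold lower in ltm (0.297 to 125) without ltm 6 leaves A and 1.43-fold higher (0.284 to 6.64) without ltm 6 leaves B. In the fit with no filter its ltm stage change was 1.63 ± 0.595 (limma, unadjusted p = 0.0261, adjusted p = 1.0). There 0.0% of genes were called by limma and 0.0159% by DESeq2. In limma 866 of 25105 genes had an unadjusted p under 0.05.

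EJ2 and TM29 each lie next to a FRUITFULL-like gene, a MADS branch that promotes the floral transition. FUL2, next to EJ2, had 114 and 117 reads in WT 4 leaves, 199 and 342 in WT 6 leaves, 118 and 82 in ltm 4 leaves, and 131 and 166 in ltm 6 leaves. FUL2 thus had its highest counts in WT 6 leaves, as EJ2 did, and EJ2 had 0 reads in 3 libraries. MBP20, next to TM29, had 7 and 11 reads in WT 4 leaves, 72 and 96 in WT 6 leaves, 3 and 1 in ltm 4 leaves, and 21 and 11 in ltm 6 leaves. MBP20 was highest in WT 6 leaves as well, and TM29 had at most 3 reads in a library. The other neighbours by identifier had between 0 reads in all, beside J2, TM5 and TM29, and 27271 reads, in the gene after LIN. In the table, the identifier before AGL6 is Solyc01g092960 and the one after RIN is Solyc05g012030, with 562 and 24 reads.

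**Figure D3:**
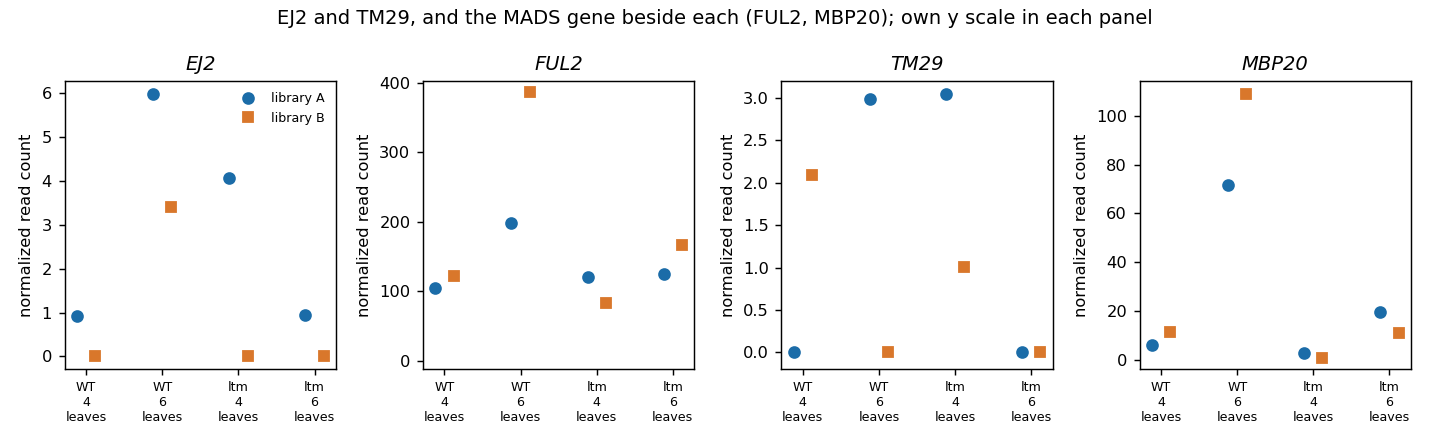
Normalized read count (y axis, own scale in each panel) of EJ2 and FUL2 and of TM29 and MBP20 in each library, by group on the x axis. FUL2 and MBP20 are highest in the WT 6 leaves libraries, at up to 387.3 and 108.7, while EJ2 stays below 6 and TM29 below 3.1.

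Of 17 further MADS genes on a list of possible partners, 16 were in the table and 9 passed the filter on low values. In limma with the filter 0 of these 9 passed the adjusted threshold in any of the 5 comparisons, and with no filter 1 passed, Solyc05g056620, between ltm and WT at 6 leaves. At an unadjusted p under 0.05, 7 were higher and 1 lower in WT at 6 than at 4 leaves. Of all genes, 3.12% were higher and 2.92% lower. At 6 leaves 6 were lower in ltm than in WT, beside 2.88% of all genes. Solyc05g056620 is in both the 7 and the 6. It passed the filter only through the WT 6 leaves libraries, so the filter set its direction in both comparisons. The list was chosen with earlier results of these data known. In ltm 3 were higher at 6 than at 4 leaves and 0 lower, beside 1.29% and 1.90% of genes: MBP20 (2.47 ± 0.568), STM3 (0.40 ± 0.154) and J (0.38 ± 0.153), a MADS gene of the pedicel joint. At 4 leaves 3 were lower in ltm, beside 1.31% of genes: MBP3 (-1.14 ± 0.210), STM3 (-0.54 ± 0.154) and MBP20 (-1.75 ± 0.568). The median log2 fold change of the 9 was 1.29 in WT from 4 to 6 leaves and -0.95 between ltm and WT at 6 leaves, beside -0.003 and -0.005 over all genes tested. The lowest p belonged to Solyc05g056620, a gene listed as a MADS gene whose name is uncertain. It had 0 and 1 reads in WT 4 leaves and 125 and 129 in WT 6 leaves, 0 in both ltm 4 leaves libraries, and 1 and 0 in ltm 6 leaves (limma with the filter, adjusted p = 0.562 for the WT change and 0.180 between the genotypes at 6 leaves). With no filter its adjusted p for the WT change was 0.0583 in limma, 0.0096 in edgeR and 0.00116 in DESeq2. Between the genotypes at 6 leaves it was 0.0280 in limma, 0.00475 in edgeR and 2.58e-04 in DESeq2. This count separated the WT 6 leaves libraries from the rest, as those of J2 and LIN did at far fewer reads. The other list genes with the lowest p-values in the WT comparison were MBP20 (3.22 ± 0.568), STM3 (0.79 ± 0.154), a relative of the flowering integrator SOC1, and FUL1 (1.67 ± 0.338), each with an adjusted p of 0.727 in limma. DESeq2 with no filter called STM3 and MBP20 too, with an adjusted p of 0.0163 and 0.00538 for the WT change and of 1.63e-04 and 0.0447 between the genotypes at 6 leaves. FUL1 had 39 and 49 reads in WT 4 leaves and 135 and 125 in WT 6 leaves, and 72 and 37 in ltm 6 leaves.

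Of 6 floral meristem genes 4 passed the filter and 0 passed the adjusted threshold in any comparison. At an unadjusted p under 0.05, 1 of the 4 was higher in WT at 6 leaves than at 4 leaves, the homeobox gene S (1.38 ± 0.533, adjusted p = 0.727). At 4 leaves SP, which holds back flowering, had 21 and 39 reads in ltm and 1 and 0 in WT (4.44 ± 1.07, unadjusted p = 0.00309, adjusted p = 1.0). At 6 leaves 2 were lower in ltm, S (-1.36 ± 0.533) and FA (-0.44 ± 0.172), a regulator of flower meristem identity. TMF, which keeps meristems from maturing early, was higher in ltm (0.39 ± 0.137), and the adjusted p of all 3 was 0.755. AN, another gene of this list, was under the filter and went the other way from S and FA. It had 4 and 11 reads in ltm 4 leaves and 5 and 4 in ltm 6 leaves. WT had 0 in both 4 leaves libraries and 1 and 0 at 6 leaves. With no filter AN was 2.97 ± 0.570 higher in ltm at 4 leaves and 1.92 ± 0.570 at 6 leaves (limma, adjusted p = 0.924 and 0.773). Of the 4 meristem markers TKN1 had an unadjusted p under 0.05 between the genotypes, with a difference of 0.92 ± 0.148 at 4 leaves (limma, adjusted p = 0.513) and 1.0 ± 0.148 at 6 leaves (adjusted p = 0.250), and DESeq2 with no filter called it at both stages (adjusted p = 2.55e-04 and 2.41e-05). CLV3 was at -0.61 and -0.52, WUS at 0.32 and 0.007 and TKN2 at 0.18 and 0.16, with a list median of 0.25 at 4 leaves and 0.08 at 6 leaves. Their part in the results above was not tested. The median of the 4 floral meristem genes was 0.61 in the WT comparison and -0.03 between the genotypes at 6 leaves.

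Likeness to AGL6 and J2, the genes with at least 30 reads, was measured as the Pearson correlation of log2(normalized read count + 1) over the 8 libraries, among genes that passed the filter. The genes closest to AGL6 were Solyc01g087790 (r = 0.990), Solyc03g062890 (0.957) and Solyc08g080120 (0.955). Solyc01g087790 had 75 and 91 reads in WT 4 leaves, 81 and 68 in WT 6 leaves, 40 and 70 in ltm 4 leaves, and 24 and 36 in ltm 6 leaves. It was therefore lower in ltm 4 leaves A than in B and lowest in ltm 6 leaves A, as AGL6 was. Solyc08g080120 had its lowest count, 63, in the same library. The genes closest to J2 were Solyc05g054840 (0.938), Solyc03g058400 (0.933) and Solyc06g005480 (0.932). Solyc05g054840 varied little, from 149 to 180 reads over the 8 libraries. Solyc03g058400 had 28 and 21 reads in WT 6 leaves and 4 and 12 in ltm 6 leaves. The partner MADS genes closest to J2 were STM3 (0.876) and Solyc05g056620 (0.851), and with AGL6 these had 0.418 and 0.407. The 8 points share groups, replicate letters and low counts, the genes were picked as the closest among many, and no p is given.

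**Figure D4:**
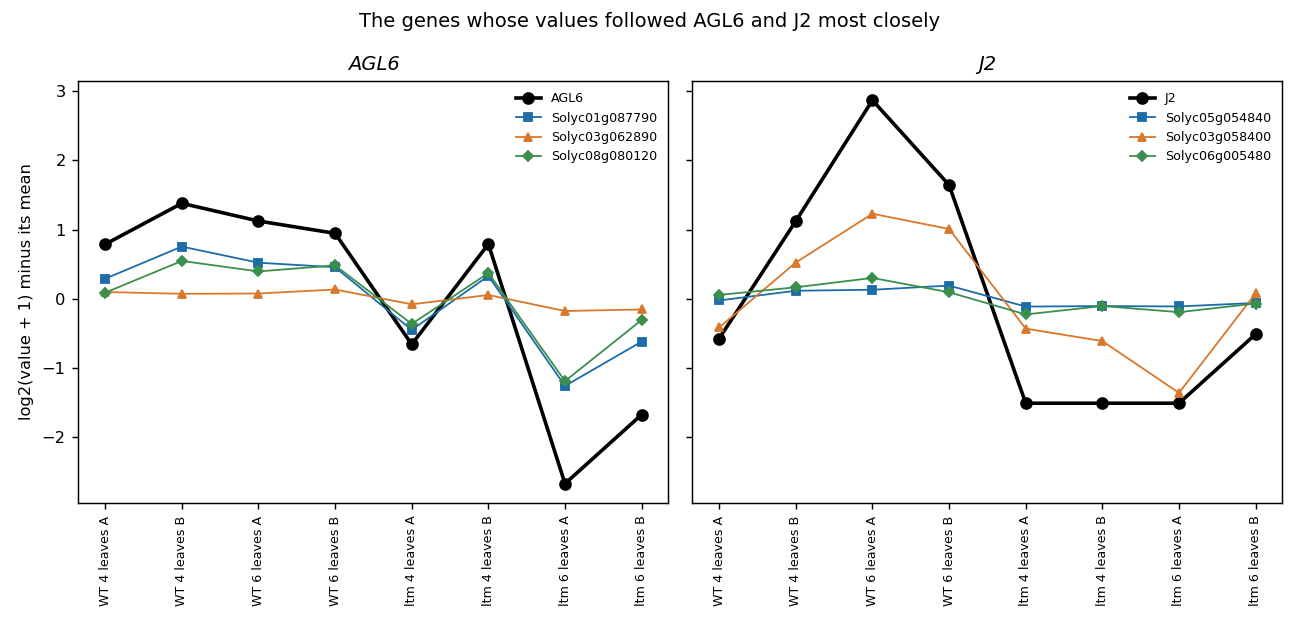
Log2(normalized read count + 1) minus its mean over the 8 libraries (y axis) in each library (x axis) for AGL6 and J2 in black and, in colour, the 3 genes with the highest correlation with each. AGL6 and Solyc01g087790 (r = 0.990) are both lowest in ltm 6 leaves A, and J2 is highest in WT 6 leaves A.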

How the data were processed

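RNA of shoot apical meristems was sequenced in 8 libraries, grouped here by sample title. The submitters' processing notes name TopHat2 2.0.10, HTSeq 0.6.1p1 and DESeq2 1.6.3 without their roles. Per the values, the deposited signal is a gene count over a size factor (0.883 to 1.09), and dividing by the smallest step recovered whole reads (100% of values, tolerance 1e-06).

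Genes whose value reached 10 in 2 or more libraries (19186 of 34722) were fitted with limma 3.58.1 (R 4.3.3, trend) on log2(value + 1), with a mean per group. P-values were adjusted by Benjamini-Hochberg over all genes tested, with a threshold of 0.05. The added 1 understates fold changes of low genes. Alternatives included edgeR 4.0.16 and DESeq2 1.42.0 on the reads. Read ratios were scaled by size factor, with exact 95% (Clopper-Pearson) counting intervals. A group at 0 was set to a floor of 3 reads over the group, with the reads of the other group taken as exact. No fold is given where both groups had 3 reads or fewer.

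Nothing in the labels says that A and B came from separate plants, so p-values cover only the spread between libraries, which may be technical. Libraries of a group differed beyond sampling noise (chi-square per degree of freedom 12.3 to 37.1). Deviations of the A libraries correlated at 0.13 to 0.52 in all 6 pairs of groups. The letters were therefore taken as a pairing in the within-letter differences and in the replicate block alternative. This pairing rests on the data, as no label states it. The other fits, which gave all printed p-values, did not use the letter.

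The 7 genes and the lists were chosen with earlier results of these data known. Named are the 7, their neighbours, list genes with the lowest unadjusted p under 0.05 (up to 4 per list and comparison), and the 3 genes most like AGL6 and J2. SFT, AN, TM6, GLO1 and AGL11 were named after their values were seen. Left-out read ratios and unfiltered edgeR and DESeq2 fits were added after seeing the data. The list entry Solyc01g093965 and gene sequences were not used here.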

Additional observations from a re-analysis of the deposited data

Results flagged for a closer look

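LIN was picked out because its counts went opposite ways from 4 to 6 leaves in the genotypes: both WT libraries were higher at 6 leaves than both at 4 leaves, and both ltm libraries were lower. The difference of the stage changes, ltm minus WT, was -2.72 on the log2(value + 1) scale. LIN was under the filter on low values, so the difference was not tested in the filtered fit. In the limma fit with no filter it did not pass (unadjusted p = 0.00513, adjusted p = 1.0). In that fit 394 of 25105 genes had an unadjusted p under 0.05 for this difference. In ltm the change rests on 2 reads at 4 leaves against 0 at 6 leaves, both at or under the floor.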

How the results depend on the processing

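None of the 7 genes was called in any of the 5 comparisons under any of the 19 alternatives run (0 in each), and 1 of the 7, AGL6, was tested where the usual filter held, 0 with the stricter one. The replicate block gave 1, 1, 0, 0 and 0 calls over all genes in the 5 comparisons, as without it, and changed no call. At an unadjusted p under 0.05 in limma, it raised the count for the WT stage change from 1158 to 1855 genes. Between the genotypes at 6 leaves that count rose from 1237 to 1915. For ltm against WT at 4 leaves, 1 gene was called by limma, 19 by DESeq2 and 16 by DESeq2 with no filter. For ltm against WT at 6 leaves limma called 1 gene, 2 with no filter or pseudocount 5, 4 without both 4 leaves B libraries, and 1 to 2 with each library left out. DESeq2 called 36 with or without the filter, and edgeR with no filter 2. For WT at 6 against 4 leaves limma called 0 genes, with 1158 at an unadjusted p under 0.05. It called 1 with pseudocount 5, DESeq2 called 11, or 10 with no filter, and edgeR with no filter 1. For ltm at 6 against 4 leaves limma called 0 (612 unadjusted) and DESeq2 4 with or without the filter. For the difference of the stage changes all tools called 0 (138 unadjusted in limma, 146 in edgeR and 70 in DESeq2). The WT stage change of AGL6, -0.05, became 0.25 without WT 4 leaves B or without both 4 leaves B libraries and 0.04 without WT 6 leaves B, over a range of -0.35 to 0.25. The cause was not tested. The other 4 changes of AGL6 kept their sign in all 18 alternatives. Counts of 0 to 20 reads per library limit every statement on these genes.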

Other observations

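The 2 WT 6 leaves libraries, of 19960770 reads in A and 17895357 in B, differed in the counts of some flowering genes and little in others. J2, LIN, EJ2 and TM29 had 20, 10, 6 and 3 reads in A and 7, 6, 3 and 0 in B. The FRUITFULL-like genes FUL2 and MBP20 had 199 and 72 reads in A and 342 and 96 in B. The florigen gene SFT had 0 reads in A and 9 in B, SP had 8 and 0, and the homeobox gene S had 60 and 160. Solyc05g056620 had 125 and 129 reads, the FRUITFULL-like gene FUL1 135 and 125, and AGL6 13 and 10. These genes were set side by side after their values were seen, and 1 library on each side allows no test of the difference.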
